A study of Arabidopsis thaliana with 8 samples.

Results

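The genes described here are 10 zinc and metal transporter genes of *Arabidopsis thaliana*. They are *ZIP1*, *ZIP2*, *ZIP3*, *ZIP4*, *ZIP5*, *ZIP6* and *ZIP9* of the ZIP family, *MTP3* of the metal tolerance protein family, and the P-type ATPase genes *HMA2* and *HMA4*. They were picked out by gene name and locus, with earlier results of these data known. Of the 33028 rows in each table of counts, 11 carry their names: 9 genes stand on 1 row each, *MTP3* under the name MTPA2, and the name ZIP4 stands on 2 rows. The annotation gives the symbol ZIP4 to the zinc transporter gene AT1G10970 and also to AT1G56590, which encodes a subunit of a clathrin adaptor, and the tables do not say which row is which. Both rows are therefore described below, and counts of members are out of the 9 genes that stand on 1 row.

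Whole seedlings were sequenced with QuantSeq, a 3′ mRNA sequencing method in which a transcript gives a single read next to its poly(A) tail, whatever its length. The 4 groups had 2 libraries each and all were of the Col-0 ecotype: *HRE1α* OX and *HRE1β* OX, which are labelled as overexpressing 1 of the splicing variants of the ethylene response factor gene *HRE1* (also *ERF73*), *AtRH17* OX, labelled as overexpressing a DEAD-box RNA helicase gene, and WT. Per the labels, all seedlings were 14 days old, were grown on agar plates at 22 °C under short days (8 h light, 16 h dark), and received no treatment. The study compared the *HRE1* lines with WT to find the genes downstream of each variant. The *HRE1α* OX seedlings came from a line of an earlier study, the *HRE1β* construct held the open reading frame of that variant in a binary vector, and homozygous plants of later transgenic generations were used. The sources used here describe no promoter for these lines and do not say whether the 2 libraries of a group came from separate cultures, so the p-values measure only the spread between these libraries, which may be technical.

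ZIP proteins, named after the ZRT and IRT transporters of yeast and plants, carry zinc, iron, manganese and related divalent metals toward the cytosol, either from outside the cell or out of organelles. MTP proteins work in the opposite direction and load metals into the vacuole, while HMA2 and HMA4 pump zinc out of root cells next to the vascular tissue so that it can be carried to the shoot in the xylem. In *Arabidopsis*, several ZIP genes are known to be induced by zinc deficiency through the transcription factors bZIP19 and bZIP23, which bind a palindromic zinc deficiency response element (ZDRE).

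The core of that element, TGTCGACA, was looked up on both strands from 1000 bases before to 100 bases after the annotated start of each gene, in the TAIR10.1 genome of RefSeq. It was present in 315 of 27443 such windows (1.15%) and in 2 of the 10 members, *ZIP4* and *ZIP5*. The window was set after matches had been seen. Also looked up were *IRT1*, *IRT3*, *ZIP7*, *NAS2*, *NAS4* and *HMA3*, zinc-related genes picked by name and described further below. Of these, *IRT3* and *NAS2* held the core and the others did not. All 6 matches are shown because they are the sequence by which this gene family is usually tied to zinc supply. Each is given with its 11 flanking bases on either side, 5′ to 3′ on the strand of the gene, which is the reverse strand for all 4 genes, with the core in capitals.
ZIP4, 39 bases before the start, chr1:3667160-3667189: taacgcgaaaaTGTCGACAtatttggctaa
ZIP4, 89 bases after the start, chr1:3667032-3667061: agtccatagaaTGTCGACActctttcactc
ZIP5, 831 bases before the start, chr1:1548662-1548691: cgtacaatttaTGTCGACAttctctcgaca
IRT3, 24 bases before the start, chr1:22447305-22447334: ttacaacaaaaTGTCGACAtttagttggcg
IRT3, 74 bases after the start, chr1:22447207-22447236: cttcctcacgaTGTCGACAttacttgtatc
NAS2, 70 bases after the start, chr5:22712353-22712382: tctcttcatagTGTCGACAtggcttgcgaa
The letters GCCGCC, the core of the GCC box that ethylene response factors bind, were in 2832 of the same windows (10.3%) and in 0 of the 10 members. These are matches of letters and no binding was measured.

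Each library held between 25657217 and 30606058 counts, so that 3 counts correspond to 0.098 to 0.117 CPM (counts per 1000000, scaled with the TMM factors of edgeR). The overexpressed genes were looked at as a check of the labels. *HRE1* had 4424 and 5397 counts in *HRE1α* OX libraries, 916 and 1057 in the libraries labelled *HRE1β* OX, 1233 and 878 in the libraries labelled *AtRH17* OX, and 1401 and 1115 in WT libraries, so it was high in *HRE1α* OX only. *AtRH17* (AT2G40700) had 144 and 124 counts in the libraries labelled *AtRH17* OX, against 259 and 242 in WT libraries. These counts thus do not show the overexpression named by 2 of the labels, and those libraries are named by their labels throughout. A transgene whose transcripts end in vector sequence gives no 3′ read on the annotated gene, and this was not tested. Seed storage and oil body genes (8 genes) summed to 90.9 and 26.9 CPM in libraries labelled *HRE1β* OX and to between 0.273 and 0.853 CPM in the other 6 libraries, and *CRA1*, *CRC*, *CRB* and *PER1* had 0 counts in both WT libraries. Root and leaf markers were present in every library. In RNA of whole seedlings, fewer cells of a type and less RNA per cell cannot be told apart.

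**Figure D1:**
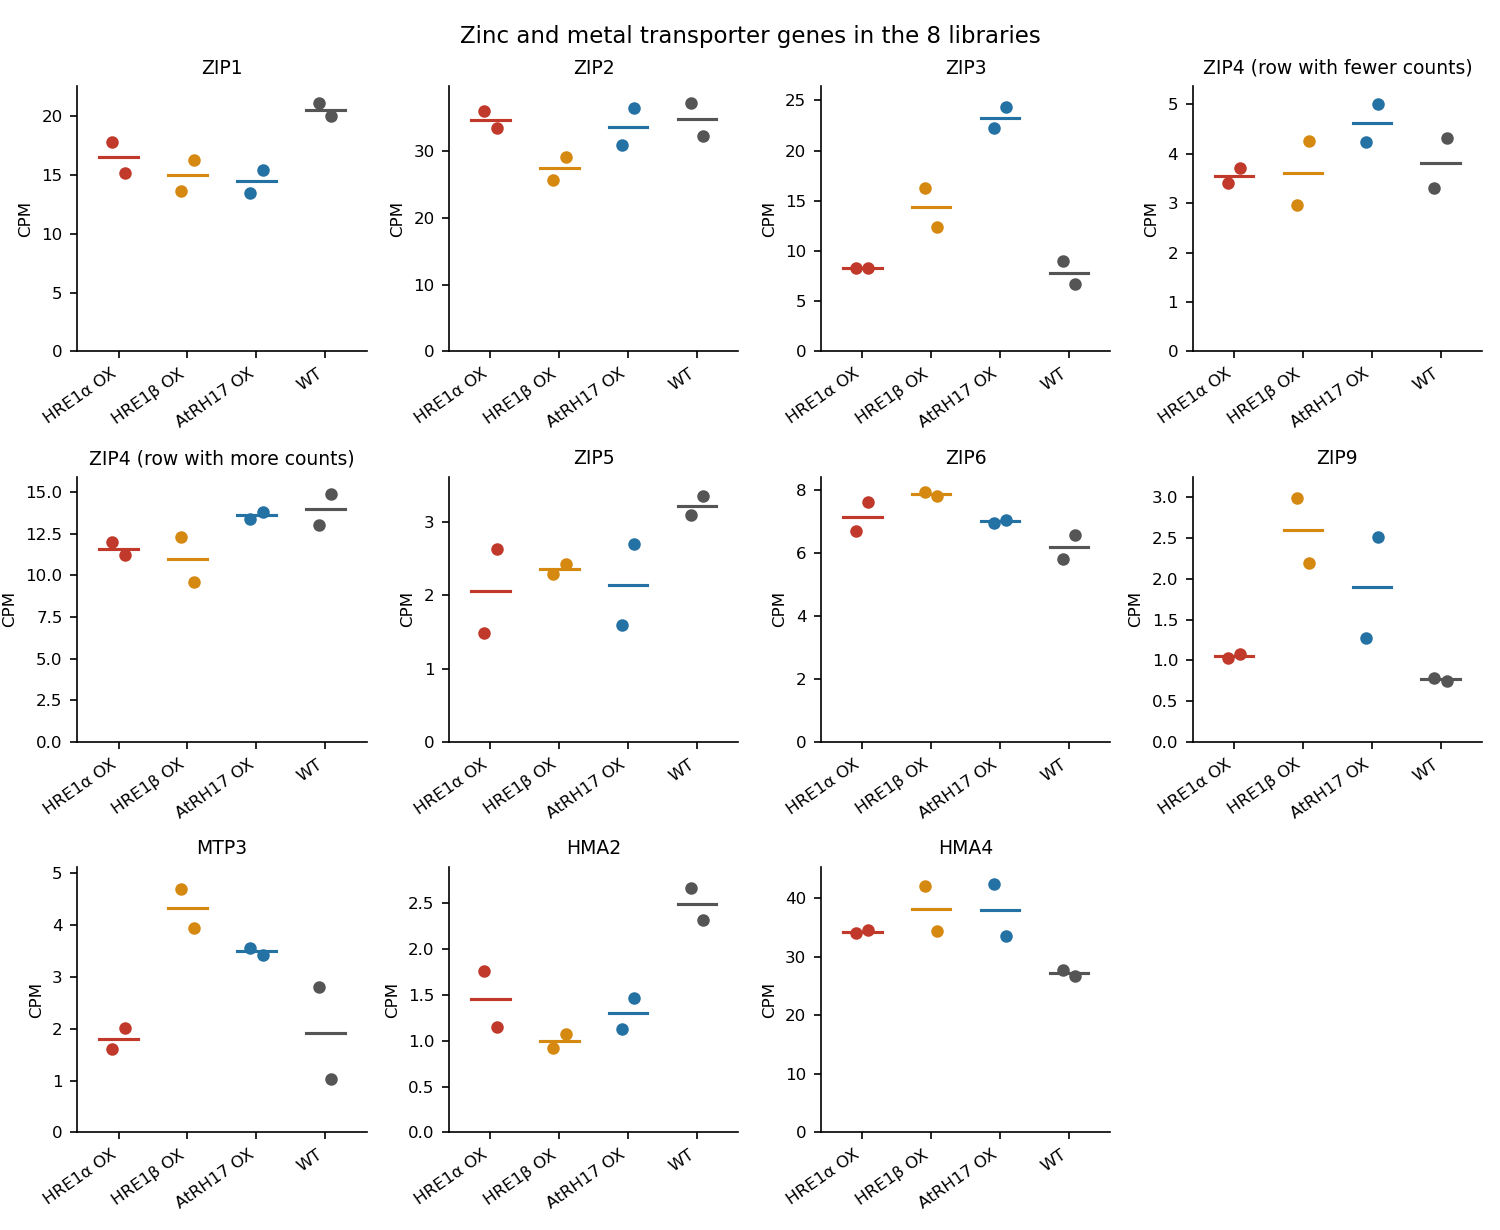
CPM of the 10 zinc and metal transporter genes (11 panels, since ZIP4 stands on 2 rows) in each library. Points are libraries, lines are means of the 2 libraries of a group, and every axis starts at 0. ZIP3 lies highest in the libraries labelled AtRH17 OX at 22.3 and 24.3 CPM and second highest in those labelled HRE1β OX at 16.3 and 12.4 CPM, while ZIP1 and HMA2 lie highest in WT.

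Relative to WT, 4 of 9 members were higher in the libraries labelled *HRE1β* OX (*ZIP3*, *ZIP9*, *MTP3* and *HMA4*) and 3 of 9 were lower (*ZIP1*, *ZIP2* and *HMA2*). A gene is called higher or lower where the adjusted p is under 0.05 in edgeR's quasi-likelihood test with Benjamini-Hochberg adjustment over all 22602 genes tested, and of those genes 11.2% were higher and 11.6% lower in this comparison. In the libraries labelled *AtRH17* OX, 3 of 9 members were higher than in WT (*ZIP3*, *ZIP9* and *HMA4*), where 15.3% of all genes were higher. There 1 of 9 members was lower, *ZIP1*, where 15.5% of all genes were lower, so that this share lay near the background. In *HRE1α* OX, 0 of 9 members were called in either direction by edgeR, DESeq2 or limma. An unadjusted p under 0.05 was reached by 2 of 9 members with each tool, *ZIP1* and *HMA4* in edgeR and DESeq2 and *HMA2* and *HMA4* in limma. Of all genes, 1.57% were higher and 1.8% lower in *HRE1α* OX at an adjusted p under 0.05. The share of all genes at the unadjusted threshold was not counted, so the 2 of 9 have no background beside them. The 3 comparisons share the WT libraries. The median log2 fold change of the 9 members was -0.00 in *HRE1α* OX, 0.35 in the libraries labelled *HRE1β* OX and 0.18 in those labelled *AtRH17* OX, beside -0.01, 0.00 and -0.01 over all genes tested.

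The count of 7 called members under the *HRE1β* label was that of both its libraries. Without its replicate 1, the remaining library was taken to vary like the other groups. Fewer members and fewer of all genes were then called, as they were without WT replicate 1. Whether the members lost more calls than other genes was not tested. Without *HRE1β* OX replicate 1, each member whose call was lost kept its direction with a smaller log2 fold change. It was -0.33 for *ZIP1* and 0.34 for *HMA4*, against -0.46 and 0.49 with both libraries. *HRE1β* OX replicate 1 lay farther from WT than replicate 2 for all 7 called members. It was also the library with the seed marker sum of 90.9 CPM, against 26.9 CPM in replicate 2. The part of the seed signal in these differences was not tested. In the libraries labelled *AtRH17* OX, fewer members and fewer of all genes were called without their replicate 1. There the log2 fold change was -0.41 for *ZIP1* and 0.31 for *HMA4*, against -0.51 and 0.48 with both libraries.

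**Figure D2:**
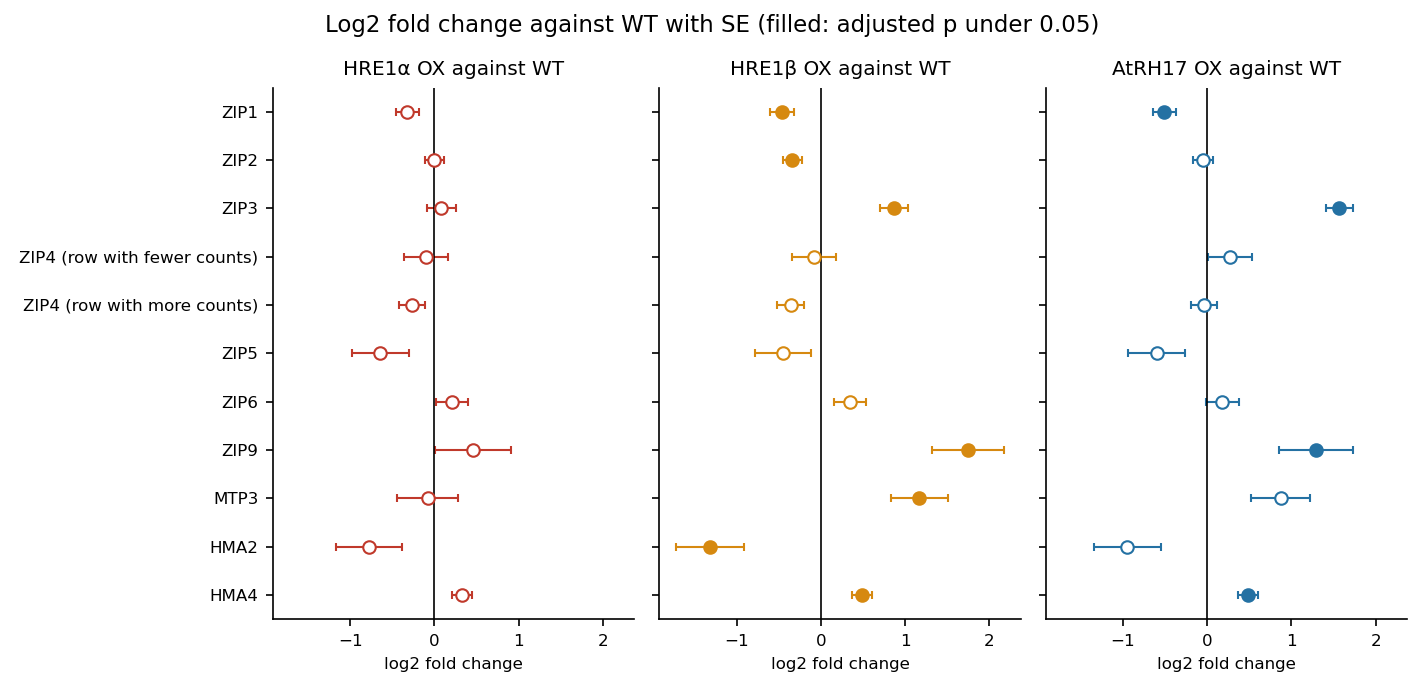
Log2 fold change against WT of each member in the 3 lines, as points with SE bars from edgeR's fit of all 8 libraries. Filled points have an adjusted p under 0.05. The 2 filled points of the panel for AtRH17 OX farthest to the right are ZIP3 at 1.57 and ZIP9 at 1.29, no point is filled in the panel for HRE1α OX, and the SE bars are widest for ZIP9, HMA2, MTP3 and ZIP5, which have few counts.

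*ZIP3* (AT2G32270, chromosome 2, 13704068 to 13706928, forward strand, 3 exons) encodes a ZIP protein that restores zinc uptake to yeast mutants. It had 22.3 and 24.3 CPM in the libraries labelled *AtRH17* OX, 16.3 and 12.4 CPM in those labelled *HRE1β* OX, 8.33 and 8.29 CPM in *HRE1α* OX libraries, and 9.03 and 6.67 CPM in WT libraries. The libraries labelled *AtRH17* OX were all above those labelled *HRE1β* OX, these were all above WT, and *HRE1α* OX lay within the range of WT. Relative to WT, *ZIP3* was 2.97-fold higher in the libraries labelled *AtRH17* OX (log2 fold change 1.57 ± 0.16 SE, edgeR adjusted p = 8.9e-09). It was 1.83-fold higher in the libraries labelled *HRE1β* OX (log2 fold change 0.87 ± 0.17 SE, edgeR adjusted p = 0.000182). In *HRE1α* OX the log2 fold change was 0.08 ± 0.17 (SE, edgeR adjusted p = 0.891). *ZIP3* was the member whose calls depended least on the processing: against WT it was called in 13 of 13 alternatives for the *HRE1β* label and in 12 of 12 for the *AtRH17* label.

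Some markers of the root moved beside *ZIP3* and others did not. The whole list of 14 root markers, which holds endodermis, root hair and stele genes, summed to 280 and 314 CPM in the libraries labelled *AtRH17* OX, 242 and 237 CPM in those labelled *HRE1β* OX, 198 and 183 CPM in *HRE1α* OX and 211 and 169 CPM in WT. Of these 14 genes, 6 were higher and 1 was lower under the *AtRH17* label, where 15.3% and 15.5% of all genes were. Under the *HRE1β* label 5 were higher and 1 lower, where 11.2% and 11.6% of all genes were. None of the 14 was at 0 in any library. The 6 higher under the *AtRH17* label were *CASP1* to *CASP5* and *ESB1*, genes of the Casparian strip, the barrier of the root endodermis. *MYB36*, another endodermis gene of the list, was not called under the *AtRH17* or *HRE1β* label. Its log2 fold changes there were 0.16 ± 0.19 and 0.03 ± 0.19 (SE, edgeR adjusted p = 0.586 and 0.948). The 5 *CASP* genes summed to 134 and 157 CPM in the libraries labelled *AtRH17* OX and 101 and 100 CPM in those labelled *HRE1β* OX. They summed to 70.5 and 65.2 CPM in *HRE1α* OX and 77.4 and 49.9 CPM in WT. The order of group means of these sums was that of *ZIP3*. This order was not particular to the *CASP* genes, since the whole root list and the leaf markers given below had it too. The 8 root markers other than the *CASP* genes and *ESB1* had another order, with 63.8 and 70.9 CPM under the *AtRH17* label, 71.2 and 70.3 CPM under the *HRE1β* label, 70.7 and 68.7 CPM in *HRE1α* OX and 80.3 and 73.6 CPM in WT, where they were highest. Among them the root hair gene *EXPA18* was lower under both the *AtRH17* and *HRE1β* labels (log2 fold change -0.67 ± 0.23 and -0.63 ± 0.22 SE, edgeR adjusted p = 0.0269 and 0.045). The split of the root list, *MYB36* and *EXPA18* were chosen after their values were seen. The 10 leaf markers summed to 28025 and 28639 CPM under the *AtRH17* label, 25214 and 26840 CPM under the *HRE1β* label, 23284 and 22566 CPM in *HRE1α* OX and 18651 and 21484 CPM in WT. Of them, 8 were higher and 1 lower under the *AtRH17* label, 7 higher and 1 lower under the *HRE1β* label, and 2 higher in *HRE1α* OX. The shares of all genes given for the root list apply here too, and in *HRE1α* OX 1.57% of all genes were higher. The part of root or leaf content in the *ZIP3* values was not tested.

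**Figure D3:**
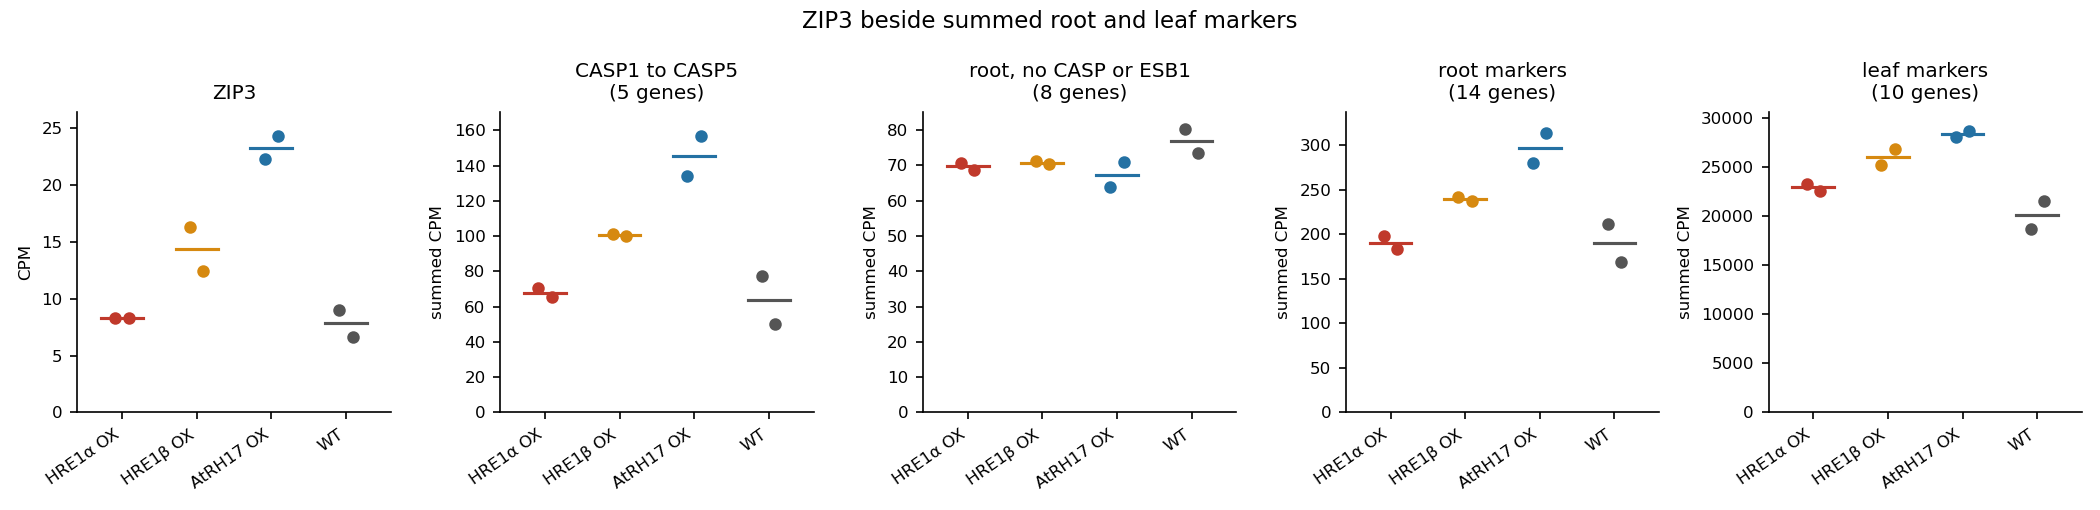
CPM of ZIP3 beside the summed CPM of the 5 CASP genes, the 8 root markers other than CASP genes and ESB1, all 14 root markers and the 10 leaf markers in each library. Points are libraries and lines are group means, with axes from 0. ZIP3, the CASP sum, the sum of all 14 root markers and that of the leaf markers have the same order of group means. The libraries labelled AtRH17 OX lie at 22.3 and 24.3 CPM for ZIP3 and at 134 and 157 CPM for the CASP sum. The sum of the 8 other root markers is highest in WT.

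*ZIP9* (AT4G33020, chromosome 4, 15932420 to 15934762, reverse strand, 4 exons) is known as a gene induced by zinc deficiency. Its counts were low: 2.99 and 2.2 CPM in libraries labelled *HRE1β* OX, 1.27 and 2.52 CPM in those labelled *AtRH17* OX, 1.03 and 1.08 CPM in *HRE1α* OX and 0.782 and 0.752 CPM in WT. Both WT libraries lay below all 6 others, and the 2 libraries labelled *AtRH17* OX lay apart from each other. *ZIP9* was 3.37-fold higher than in WT under the *HRE1β* label (log2 fold change 1.75 ± 0.43 SE, edgeR adjusted p = 0.00264). It was 2.45-fold higher under the *AtRH17* label (log2 fold change 1.29 ± 0.44 SE, edgeR adjusted p = 0.0231). In *HRE1α* OX the log2 fold change was 0.46 ± 0.45 (SE, edgeR adjusted p = 0.731). The call for the *HRE1β* label was lost only without its replicate 1 (edgeR adjusted p = 0.0507), and that for the *AtRH17* label was lost in 5 of 12 alternatives. These included the fits without WT replicate 1 or 2 (edgeR adjusted p = 0.0576 and 0.0786) and without *AtRH17* OX replicate 2, where the log2 fold change was 0.73 (edgeR adjusted p = 0.366).

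*ZIP1* (AT3G12750, chromosome 3, 4051651 to 4053201, reverse strand, 2 exons) encodes a ZIP protein that transports zinc in yeast. It had 13.6 and 16.3 CPM in libraries labelled *HRE1β* OX, 13.5 and 15.4 CPM in those labelled *AtRH17* OX, 17.8 and 15.2 CPM in *HRE1α* OX and 21.1 and 20 CPM in WT. All 6 libraries of the lines lay below both WT libraries. *ZIP1* was 1.37-fold lower than in WT under the *HRE1β* label (log2 fold change -0.46 ± 0.14 SE, edgeR adjusted p = 0.0153). It was 1.42-fold lower under the *AtRH17* label (log2 fold change -0.51 ± 0.14 SE, edgeR adjusted p = 0.00524). In *HRE1α* OX the log2 fold change was -0.32 ± 0.14 (SE, edgeR adjusted p = 0.263). The call for the *HRE1β* label was lost without WT replicate 1 and without *HRE1β* OX replicate 1 (edgeR adjusted p = 0.0578 and 0.222), and that for the *AtRH17* label without *AtRH17* OX replicate 1 (edgeR adjusted p = 0.0906). Both were lost with limma too (adjusted p = 0.0809 and 0.0508).

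The end of *ZIP1* shares 125 bases with *ALIS1* (AT3G12740), which encodes a subunit partner of lipid flippases and lies on the opposite strand. The sources used here do not say whether strand was used in counting, so 3′ reads of these genes cannot be told apart there. *ALIS1* was lower too, with log2 fold changes of -0.36 ± 0.10 under the *HRE1β* label and -0.40 ± 0.10 under the *AtRH17* label (SE, edgeR adjusted p = 0.0116 and 0.00351). For every 100 counts of *ALIS1*, *ZIP1* had 32.8 and 34.8 counts in the libraries labelled *HRE1β* OX, 33.6 and 33.8 in those labelled *AtRH17* OX, 34.3 and 35.2 in *HRE1α* OX and 36.9 and 35.8 in WT. This ratio differed little between the libraries, and the values of *ZIP1* are uncertain for that reason.

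*ZIP2* (AT5G59520, chromosome 5, 23991213 to 23992908, reverse strand, 2 exons) encodes a ZIP protein expressed in the root stele. It had 25.6 and 29.1 CPM in libraries labelled *HRE1β* OX, 30.8 and 36.4 CPM in those labelled *AtRH17* OX, 35.9 and 33.4 CPM in *HRE1α* OX and 37.2 and 32.2 CPM in WT. The libraries labelled *HRE1β* OX lay below all others and the other groups overlapped. *ZIP2* was 1.27-fold lower under the *HRE1β* label than in WT (log2 fold change -0.34 ± 0.12 SE, edgeR adjusted p = 0.0286), a call that was lost in 5 of 13 alternatives, among them the fits without WT replicate 1 and without *HRE1β* OX replicate 1 (edgeR adjusted p = 0.201 and 0.275). The log2 fold change was -0.05 ± 0.11 under the *AtRH17* label and -0.00 ± 0.11 in *HRE1α* OX (SE, edgeR adjusted p = 0.8 and 0.997).

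*ZIP5* (AT1G05300, chromosome 1, 1544927 to 1547849, reverse strand, 3 exons), a member that carries the ZDRE core 831 bases before its start, passed the test in no line. It had 2.29 and 2.43 CPM in libraries labelled *HRE1β* OX, 1.59 and 2.69 CPM in those labelled *AtRH17* OX, 1.49 and 2.63 CPM in *HRE1α* OX and 3.09 and 3.35 CPM in WT. WT lay above all 6 other libraries, but the 2 libraries lay far apart within *HRE1α* OX and under the *AtRH17* label. The log2 fold change was -0.45 ± 0.33 under the *HRE1β* label, -0.60 ± 0.34 under the *AtRH17* label and -0.64 ± 0.34 in *HRE1α* OX (SE, edgeR adjusted p = 0.378, 0.19 and 0.406). *ZIP5* had 39 to 98 counts per library, and whether a change of this size could be detected in this design was not tested.

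*ZIP6* (AT2G30080, chromosome 2, 12838620 to 12840252, reverse strand, 2 exons), a family member whose transport role is little known, passed the test in no line either. It had 7.91 and 7.81 CPM in libraries labelled *HRE1β* OX, 6.94 and 7.04 CPM in those labelled *AtRH17* OX, 6.68 and 7.61 CPM in *HRE1α* OX and 5.79 and 6.56 CPM in WT. The 6 libraries of the lines lay above both WT libraries, by differences that did not pass the test. The log2 fold changes were 0.35 ± 0.19, 0.18 ± 0.19 and 0.21 ± 0.19 in the same order of lines (SE, edgeR adjusted p = 0.204, 0.534 and 0.7). Its end shares 36 bases with the gene AT2G30070 on the opposite strand.

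*ZIP4* (AT1G10970, chromosome 1, 3665087 to 3667139, reverse strand, 2 exons) is a classical zinc deficiency marker and holds 2 of the ZDRE cores printed above. The row of that name with fewer counts had 2.96 and 4.25 CPM in libraries labelled *HRE1β* OX, 4.23 and 5.01 CPM in those labelled *AtRH17* OX, 3.4 and 3.71 CPM in *HRE1α* OX and 3.31 and 4.31 CPM in WT. The row with more counts had 12.3 and 9.59 CPM, 13.4 and 13.8 CPM, 12 and 11.2 CPM, and 13 and 14.9 CPM in the same order of groups. Whichever row is the zinc transporter, neither was called in any of the 6 comparisons between groups or in any alternative. The log2 fold changes against WT of the row with fewer counts were -0.08, 0.27 and -0.10 in the libraries labelled *HRE1β* OX, those labelled *AtRH17* OX and *HRE1α* OX, and those of the row with more counts were -0.36, -0.04 and -0.27.

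*MTP3* (AT3G58810, chromosome 3, 21749966 to 21752141, forward strand, 1 coding exon) encodes a vacuolar membrane transporter that stores zinc in root epidermis and cortex and is known to be induced by iron deficiency and by excess zinc. It had 4.69 and 3.95 CPM in libraries labelled *HRE1β* OX, 3.56 and 3.42 CPM in those labelled *AtRH17* OX, 1.6 and 2.02 CPM in *HRE1α* OX and 2.81 and 1.03 CPM in WT. The 4 libraries labelled *HRE1β* OX and *AtRH17* OX lay above the other 4, and the 2 WT libraries differed by more than those of any other group. *MTP3* was 2.26-fold higher than in WT under the *HRE1β* label (log2 fold change 1.17 ± 0.34 SE, edgeR adjusted p = 0.0117). The log2 fold change was 0.87 ± 0.35 under the *AtRH17* label and -0.08 ± 0.36 in *HRE1α* OX (SE, edgeR adjusted p = 0.0573 and 0.958). These results depended on single libraries and, under the *AtRH17* label, on the processing. Without WT replicate 2 the call for the *HRE1β* label was lost (log2 fold change 0.62, edgeR adjusted p = 0.217), as it was without *HRE1β* OX replicate 1 (edgeR adjusted p = 0.096). Under the *AtRH17* label *MTP3* was called with upper-quartile factors, with no filter on low counts and with a replicate block (edgeR adjusted p = 0.0451, 0.0288 and 0.0437). Without WT replicate 1 its log2 fold change under that label was 1.76.

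*HMA4* (AT2G19110, chromosome 2, 8278789 to 8286561, forward strand, 9 exons) and *HMA2* (AT4G30110, chromosome 4, 14720062 to 14725311, reverse strand, 10 exons) encode plasma membrane ATPases of the root pericycle that act together in loading zinc into the xylem. Under the *HRE1β* label they moved in opposite directions. *HMA4* had 42.1 and 34.4 CPM in libraries labelled *HRE1β* OX, 42.4 and 33.5 CPM in those labelled *AtRH17* OX, 34 and 34.6 CPM in *HRE1α* OX and 27.7 and 26.7 CPM in WT. All 6 libraries of the lines lay above WT. *HMA4* was 1.40-fold higher than in WT under the *HRE1β* label (log2 fold change 0.49 ± 0.12 SE, edgeR adjusted p = 0.00252). It was 1.40-fold higher under the *AtRH17* label too (log2 fold change 0.48 ± 0.12 SE, edgeR adjusted p = 0.00216), and each of these calls was lost only without replicate 1 of the line (edgeR adjusted p = 0.117 and 0.114). In *HRE1α* OX the log2 fold change was 0.33 ± 0.12 (SE, edgeR adjusted p = 0.145).

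*HMA2* had 0.924 and 1.07 CPM in libraries labelled *HRE1β* OX, 1.13 and 1.47 CPM in those labelled *AtRH17* OX, 1.76 and 1.15 CPM in *HRE1α* OX and 2.67 and 2.32 CPM in WT. These are 25 to 46 counts in the libraries of the lines and 68 to 75 counts in WT, and all 6 libraries of the lines lay below WT. *HMA2* was 2.49-fold lower under the *HRE1β* label than in WT (log2 fold change -1.32 ± 0.40 SE, edgeR adjusted p = 0.016). That call was lost in 3 fits that left out a library, those without WT replicate 1 and without *HRE1β* OX replicate 1 or 2 (edgeR adjusted p = 0.072, 0.114 and 0.0686). The log2 fold change was -0.95 ± 0.40 under the *AtRH17* label and -0.78 ± 0.39 in *HRE1α* OX (SE, edgeR adjusted p = 0.0688 and 0.367). With limma *HMA2* was called under the *AtRH17* label too (log2 fold change -0.68, adjusted p = 0.014).

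The lines were also compared with each other, which does not use the WT libraries except for the shared estimate of spread. Between the libraries labelled *HRE1β* OX and those of *HRE1α* OX, 4 of 9 members differed (*ZIP3*, *ZIP9* and *MTP3* higher, *ZIP2* lower under the *HRE1β* label), where 16.7% of all genes differed. The log2 fold changes were 0.79 ± 0.17 for *ZIP3*, 1.29 ± 0.42 for *ZIP9*, 1.25 ± 0.35 for *MTP3* and -0.34 ± 0.12 for *ZIP2* (SE, edgeR adjusted p = 0.000895, 0.0288, 0.011 and 0.0385). This count fell to 1 of 9 with limma on quantile-normalized values. It also fell without any 1 of the 4 libraries compared. In each of these fits fewer of all genes were called too. The call for *ZIP2* was lost in 7 of 13 alternatives, among them DESeq2 (adjusted p = 0.0594) and the fits without any 1 of the 4 libraries compared (edgeR adjusted p between 0.0525 and 0.338). The call for *ZIP9* was lost in 4 of 13, without either *HRE1α* OX library or *HRE1β* OX replicate 1 (edgeR adjusted p = 0.156, 0.136 and 0.251) and with limma. That for *MTP3* was lost in the same 4 settings (edgeR adjusted p = 0.142, 0.0602 and 0.0993), and that for *ZIP3* without *HRE1β* OX replicate 1 (edgeR adjusted p = 0.0608). Between the libraries labelled *AtRH17* OX and *HRE1α* OX, 2 of 9 members were higher under the *AtRH17* label, *ZIP3* (log2 fold change 1.49 ± 0.16) and *MTP3* (0.94 ± 0.35) (SE, edgeR adjusted p = 4.2e-08 and 0.0464). Of all genes, 25.8% differed in this comparison, a share near that of the members, and the call for *MTP3* was lost without any 1 of the 4 libraries compared (edgeR adjusted p between 0.113 and 0.256).

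Between the libraries labelled *AtRH17* OX and those labelled *HRE1β* OX, 1 of 9 members differed, where 13.9% of all genes did. It was *ZIP3*, 1.62-fold higher under the *AtRH17* label (log2 fold change 0.70 ± 0.16 SE, edgeR adjusted p = 0.00255), and it was not called without *HRE1β* OX replicate 2 or without *AtRH17* OX replicate 2 (edgeR adjusted p = 0.109 and 0.0616). The group levels of *ZIP3* thus had the order *AtRH17* label, *HRE1β* label, *HRE1α* OX and WT, in which the neighbours *HRE1α* OX and WT did not differ beyond their spread. For *ZIP9* and *MTP3* the order of mean CPM was *HRE1β* label, then *AtRH17* label, and the difference between these neighbours was within its error (log2 fold change -0.46 ± 0.40 for *ZIP9* and -0.31 ± 0.33 for *MTP3*, SE, edgeR adjusted p = 0.503 and 0.606). For *HMA4*, *HMA2* and *ZIP1*, none of the lines differed from another past the threshold.

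Among the 22602 genes tested, those whose log2(CPM + 1) followed a called member most closely over the 8 libraries had a Pearson r between 0.961 and 0.997. These are descriptions over libraries that share depth and the differences between the groups. *ZIP3* was closest to AT4G28060 (r = 0.997), AT1G15270 (r = 0.995) and the ribosomal protein gene *RPS28* (AT5G64140, r = 0.993). *RPS28* averaged 186 CPM in the libraries labelled *AtRH17* OX and 121 CPM in WT. *ZIP1* was closest to *ALIS1* (r = 0.990), the gene with which it shares bases, and *MTP3* to AT4G06240 (r = 0.988). *HMA2* was closest to AT5G24430 (r = 0.990), *HMA4* to AT4G05400 (r = 0.970), *ZIP9* to AT1G07795 (r = 0.971) and *ZIP2* to AT2G24945 (r = 0.964).

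Of the other genes of the ZIP family, 7 of 8 stand on a row of the tables and 5 had enough counts to be tested. *IRT3*, a plasma membrane zinc and iron transporter that is a marker of zinc deficiency and carries the ZDRE core on either side of its start, was the only zinc or ZIP gene on these lists called by edgeR in every line. It had 22.9 and 22.6 CPM in libraries labelled *HRE1β* OX, 23.4 and 26.4 CPM in those labelled *AtRH17* OX, 37.1 and 30.7 CPM in *HRE1α* OX and 52.8 and 62 CPM in WT. WT lay above all 6 other libraries and *HRE1α* OX lay between WT and the remaining lines. *IRT3* was 2.52-fold lower than in WT under the *HRE1β* label, 2.31-fold lower under the *AtRH17* label and 1.70-fold lower in *HRE1α* OX (log2 fold change -1.34 ± 0.12, -1.21 ± 0.12 and -0.76 ± 0.11 SE, edgeR adjusted p = 2.9e-10, 1.4e-09 and 4.3e-05). The call in *HRE1α* OX was lost with limma (log2 fold change -0.74, adjusted p = 0.0793).

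*IRT1*, the main iron uptake transporter of the root epidermis, which also carries zinc, had 10.3 and 9.04 CPM in libraries labelled *HRE1β* OX, 3.87 and 3.5 CPM in those labelled *AtRH17* OX, 0.802 and 0.396 CPM in *HRE1α* OX and 0.284 and 0.479 CPM in WT. It was 24.9-fold higher under the *HRE1β* label and 9.54-fold higher under the *AtRH17* label (log2 fold change 4.64 ± 0.35 and 3.25 ± 0.37 SE, edgeR adjusted p = 2.0e-11 and 3.4e-08). *IRT2*, its close relative, went the other way, with 10 and 9 counts in the libraries labelled *HRE1β* OX and 7 and 15 in those labelled *AtRH17* OX, against 52 and 100 in WT (log2 fold change -2.98 ± 0.52 and -2.63 ± 0.51 SE, edgeR adjusted p = 5.2e-05 and 0.000137). *ZIP11* was higher under the *AtRH17* label (log2 fold change 0.65 ± 0.15 SE, edgeR adjusted p = 0.000995). *ZIP7* had 11 and 25 counts in the libraries labelled *HRE1β* OX, against 1 and 4 in WT, too few to give a fold change. In all, 2 of these 5 genes were higher and 2 lower under each of the *HRE1β* and *AtRH17* labels, and 1, *IRT3*, was lower in *HRE1α* OX, while limma called 1 higher under the *HRE1β* label. Over all genes, 11.2% were higher and 11.6% lower under the *HRE1β* label, and 15.3% and 15.5% under the *AtRH17* label. In *HRE1α* OX 1.8% were lower.

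**Figure D4:**
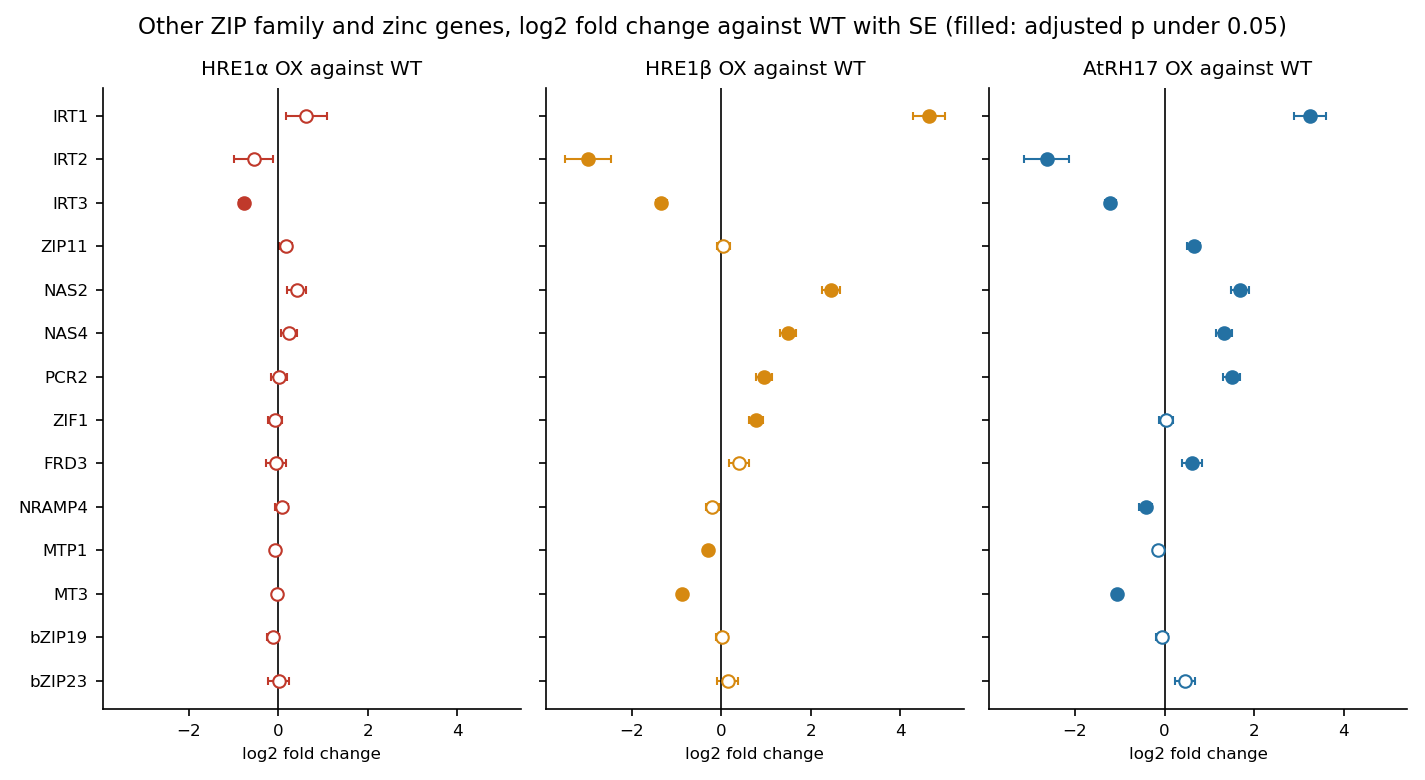
Log2 fold change against WT of 14 other ZIP family and zinc genes in the 3 lines, as points with SE bars. Filled points have an adjusted p under 0.05 in edgeR's test. IRT1 lies far to the right under the HRE1β and AtRH17 labels at 4.64 and 3.25, IRT3 is filled and left of 0 in all 3 panels, and bZIP19 and bZIP23 are filled in none.

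The transcription factor genes *bZIP19* and *bZIP23*, whose proteins sense zinc status, were not called in any line. Their log2 fold changes were 0.01 ± 0.13 and 0.14 ± 0.23 under the *HRE1β* label, -0.06 ± 0.13 and 0.46 ± 0.23 under the *AtRH17* label, and -0.11 ± 0.13 and 0.01 ± 0.23 in *HRE1α* OX (SE, edgeR adjusted p between 0.137 and 0.997). Of 18 other zinc genes tested, 4 were higher and 2 lower under the *HRE1β* label, where 11.2% and 11.6% of all genes were. Under the *AtRH17* label 5 were higher and 2 lower, where 15.3% and 15.5% of all genes were. The shares of lower genes on this list were thus not above those of all genes. DESeq2 called 3 higher and 2 lower under the *AtRH17* label and limma 3 higher and 1 lower there. In *HRE1α* OX, edgeR, DESeq2 and limma called 0 of the 18. An unadjusted p under 0.05 was found for 3 of 18 in edgeR, 3 in DESeq2 and 2 in limma, with no share of all genes counted at that threshold. The median log2 fold change of the list was 0.02 and 0.01 under the *HRE1β* and *AtRH17* labels, close to that of all genes.

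*NAS2* and *NAS4*, which make nicotianamine, a chelator that keeps zinc, iron and copper mobile, were higher under both labels. *NAS2* had 15 and 17.7 CPM in libraries labelled *HRE1β* OX, 8.88 and 10.7 CPM in those labelled *AtRH17* OX and 3.48 and 2.56 CPM in WT (log2 fold change 2.44 ± 0.20 and 1.69 ± 0.20 SE, edgeR adjusted p = 1.1e-10 and 1.1e-07). *NAS4* had log2 fold changes of 1.49 ± 0.18 and 1.32 ± 0.18 under these labels (SE, edgeR adjusted p = 1.3e-07 and 7.4e-07). *PCR2*, a plasma membrane protein that exports zinc, had log2 fold changes of 0.95 ± 0.18 and 1.50 ± 0.18 (SE, edgeR adjusted p = 0.0081 and 0.000542). The metallothionein gene *MT3* was lower, with 494 and 576 CPM in libraries labelled *HRE1β* OX and 462 and 470 CPM in those labelled *AtRH17* OX, against 908 and 1054 CPM in WT (log2 fold change -0.87 ± 0.08 and -1.07 ± 0.08 SE, edgeR adjusted p = 3.1e-09 and 3.4e-11). *HMA3*, a vacuolar relative of *HMA2*, was called under the *AtRH17* label (edgeR adjusted p = 0.0494) with 14 and 25 counts there, against 7 and 0 in WT, and this call was lost with DESeq2 and limma (adjusted p = 0.0591 and 0.106).

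The remaining called genes of that list were named after their values were seen. *ZIF1*, which moves nicotianamine into the vacuole, was higher under the *HRE1β* label (log2 fold change 0.77 ± 0.16 SE, edgeR adjusted p = 0.000507), and *MTP1*, a vacuolar zinc transporter related to *MTP3*, was lower there (-0.30 ± 0.09 SE, edgeR adjusted p = 0.0156). Under the *AtRH17* label *FRD3*, which releases citrate into the xylem, was higher (0.62 ± 0.22 SE, edgeR adjusted p = 0.0324, lost with DESeq2 and limma at adjusted p = 0.0517 and 0.0911) and *NRAMP4*, which releases metals from the vacuole, was lower (-0.42 ± 0.15 SE, edgeR adjusted p = 0.0278).

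Genes of 2 other metals were read in the same fit. Of 11 root iron uptake genes, 6 were higher and 0 lower under each of the *HRE1β* and *AtRH17* labels by edgeR, DESeq2 and limma. By edgeR 0 were lower at an unadjusted p under 0.05. *IRT1*, counted above with the ZIP family, is also among these 11 and among the 6 higher under each label. In *HRE1α* OX these tools called 0 of 11, with 1 of 11 at an unadjusted p under 0.05, a threshold at which all genes were not counted. *bHLH39*, a regulator of iron uptake, had log2 fold changes of 3.78 ± 0.39 and 3.27 ± 0.39 under these labels (SE, edgeR adjusted p = 9.1e-09 and 1.1e-07), and its partner *FIT* had 1.65 ± 0.27 and 1.51 ± 0.27 (SE, edgeR adjusted p = 2.4e-05 and 5.8e-05). Of 11 copper genes, 5 were higher and 4 lower under the *HRE1β* label, 3 higher and 4 lower under the *AtRH17* label, and 1 lower in *HRE1α* OX, where limma called 0. Beside both lists, 11.2% of all genes were higher and 11.6% lower under the *HRE1β* label. These shares were 15.3% and 15.5% under the *AtRH17* label, and 1.57% and 1.8% in *HRE1α* OX. The copper and zinc superoxide dismutase genes *CSD2* and *CSD1* had the largest changes, *CSD2* with 316 and 299 CPM in libraries labelled *HRE1β* OX and 276 and 301 CPM in those labelled *AtRH17* OX, against 56.8 and 84.4 CPM in WT (log2 fold change 2.12 ± 0.16 and 2.03 ± 0.16 SE, edgeR adjusted p = 5.7e-06 and 5.0e-06).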

How the data were processed

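RNA-Seq was performed by the authors on 8 libraries of whole seedlings with the QuantSeq 3′ mRNA-Seq kit. The authors aligned the reads with Bowtie2, per the labels on TAIR10, counted unique and multiple alignments per gene with coverage in Bedtools, and deposited raw counts, 1 table of 33028 named rows per library. Versions of these tools and the use of strand are not given in the sources used here. The study's methods give a younger age of the seedlings than the labels, and the labels were followed. Of the rows, 32577 were assigned to 1 locus of TAIR10.1 by name, and 451 were not. The positions in the study's supplementary lists were the same as in TAIR10.1 for 555 of 555 entries.

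From the deposited counts, edgeR 4.0.16 in R 4.3.3 was used with filterByExpr (22602 genes left), TMM factors (0.958 to 1.03), robust dispersions and the quasi-likelihood F test, with all 8 libraries in 1 fit, genotype as the only term and 6 contrasts. Genes were called at a Benjamini-Hochberg adjusted p under 0.05. SEs were obtained as |log2 fold change| / sqrt(F). Alternatives were DESeq2 1.42.0, upper-quartile factors, limma 3.58.1 on quantile-normalized log2(CPM + 1), no filter, at least 10 counts in every library, only the 2 groups compared, no organelle genes, leaving out each library in turn, and a replicate block. A fit without the libraries labelled AtRH17 OX was chosen after seeing the data. Simulated data were used to test the scripts.

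Named were all members, *HRE1* and *AtRH17*, and from each list at most the 5 genes with the largest change against WT among those called, with *IRT1*, *IRT3*, *bZIP19* and *bZIP23* always. The genes *ZIF1*, *MTP1*, *FRD3*, *NRAMP4*, *EXPA18* and *MYB36* fall outside this rule and were named after their values were seen. The 3 genes nearest to each called member were ranked by Pearson r, of which 1 to 3 are given. The members and lists were chosen with earlier results of these data known. Each list is counted over its genes on 1 row. With 2 libraries against 2, an exact permutation test cannot go below p = 0.333, two-sided. Counts at or near 3 per library are given without a fold change. No deposited column of comparisons was used. Plots were made with matplotlib 3.10.9 (Python 3.11.15).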

Additional observations from a re-analysis of the deposited data

Results flagged for a closer look

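The effect of the lines on 4 members differed between lines in the test of the difference itself. These are values without explanation, since causes were not tested. *ZIP3* differed between all 3 lines, with log2 fold changes of 0.79 between the *HRE1β* label and *HRE1α* OX, 1.49 between the *AtRH17* label and *HRE1α* OX and 0.70 between the *AtRH17* and *HRE1β* labels (edgeR adjusted p = 0.000895, 4.2e-08 and 0.00255). *MTP3* differed by 1.25 between the *HRE1β* label and *HRE1α* OX and by 0.94 between the *AtRH17* label and *HRE1α* OX (edgeR adjusted p = 0.011 and 0.0464). *ZIP9* differed by 1.29 and *ZIP2* by -0.34 between the *HRE1β* label and *HRE1α* OX (edgeR adjusted p = 0.0288 and 0.0385). The calls of *ZIP2* and *ZIP9* were lost in 7 and 4 of 13 alternatives.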

How the results depend on the processing

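The calls of *ZIP3* against WT under the *HRE1β* and *AtRH17* labels held in every alternative run, and no member called in the main fit changed sign in any of them. Leaving out each library in turn gave 0 called members in *HRE1α* OX throughout, 1 to 6 under the *HRE1β* label, 2 to 4 under the *AtRH17* label, 0 to 3 between the *HRE1β* label and *HRE1α* OX, 1 throughout between the *AtRH17* label and *HRE1α* OX, and 0 to 1 between the *AtRH17* and *HRE1β* labels. For the 23 other ZIP family and zinc genes combined it gave 1 to 2 in *HRE1α* OX. With limma on quantile-normalized values, the counts of members were 1 between the *HRE1β* label and *HRE1α* OX, 1 between the *AtRH17* label and *HRE1α* OX and 0 between the *AtRH17* and *HRE1β* labels, and that of the 23 other genes in *HRE1α* OX was 0, while DESeq2 gave 1 between the *AtRH17* label and *HRE1α* OX. Under the *HRE1β* and *AtRH17* labels, every fit that left out a library also called fewer of all genes than the main fit. The causes of these changes were not tested. Of the values of single members, 733 stayed on their side of the threshold, 39 more that were not called did so but moved by over 1 SE, 48 lost the call and 5 gained it.

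Same-numbered libraries deviated together little over all genes (correlations from -0.00582 to 0.0579 over 6 pairs of groups). These correlations cannot exclude a pairing by replicate number that touches only part of the genes. In each comparison the replicate block called more of all genes than the main fit. With the replicate block, the counts of called members were 0 in *HRE1α* OX, 7 under the *HRE1β* label, 5 under the *AtRH17* label with *MTP3* gained, and 4, 2 and 1 between the lines. Over all genes, limma on quantile-normalized values called 73 genes in *HRE1α* OX, against 760 in the main fit, 1864 against 3781 between the *HRE1β* label and *HRE1α* OX, and 768 against 3135 between the *AtRH17* and *HRE1β* labels. Leaving out a library gave 262 to 1468 genes in *HRE1α* OX, 3353 to 4956 under the *HRE1β* label, against 5167 in the main fit, 1900 to 2476 between the *HRE1β* label and *HRE1α* OX, 3516 to 4133 between the *AtRH17* label and *HRE1α* OX, against 5837, and 1157 to 2204 between the *AtRH17* and *HRE1β* labels. The depth limits *ZIP5*, *ZIP9*, *MTP3* and *HMA2*, which have 22 to 127 counts per library, and with 2 libraries a group 1 library decides many calls.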
